A study of Mus musculus with 15 samples.

Results

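In mouse embryonic stem cells, 774 genomic regions lay in every list of H2A.X-decreased domains from the Serum/LIF cultures titled XS and in none of 4 lists from cells that had been in 2i/LIF. They were chosen by the coverage of 1300 bp bins in 7 deposited domain lists. A bin had to be covered in the 3 XS lists (lines 30, 31 and 32) and uncovered in the 2i/LIF lists of lines 34 and 37 and in the lists of the same lines after 2i/LIF and then Serum/LIF. Chromosomes 6, 8 and 13 were left out by the rule, and adjacent bins were joined. The regions held 145430 of 1554051 bins, or 189 of 2020 Mb, which was 9.36% of the span of the 16 other autosomes. The third 2i/LIF list, from line 35, was not used by the rule. It covered 87.7% of the length of these regions, against 78.5% of the span. "Absent after 2i" is therefore not a fitting name, and the regions are called XS-shared regions here. Because coverage in the 7 lists chose the regions, it is described below and not tested. The lists not used are 1 from 2i/LIF and 2 from Serum/LIF cultures titled S, too few for a test over samples.

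H2A.X is a variant of the core histone H2A that is built into nucleosomes throughout the genome and is best known for its phosphorylation around DNA double-strand breaks. In pluripotent cells it is also studied for where it is deposited in the unphosphorylated state. The 2i medium blocks Mek, a kinase of the differentiation-promoting Erk cascade, and Gsk3, a kinase that restrains Wnt signalling, and holds the cells in a naive state. Serum with LIF supports self-renewal in a more heterogeneous population.

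H2A.X was mapped by native ChIP-seq, in which mononucleosomes from MNase-digested, uncrosslinked chromatin are immunoprecipitated. The 15 samples comprised 11 H2A.X immunoprecipitates, 3 inputs and 1 IgG control, and lists were analysed for 10 of the immunoprecipitates. All lines were derived from 129S6 X C57B6 blastocysts, and the series holds male and female lines, with the sex of each line not among the labels used here. Serum/LIF cells were grown on irradiated feeders with fetal bovine serum and LIF. The 2i/LIF medium was serum-free, with N2, B27, LIF, 1 µM PD0325901 (the Mek inhibitor) and 3 µM CHIR99021 (the Gsk3 inhibitor). Cells labelled 2i/LIF then Serum/LIF passed through both, for times not given in the sources used here. The XS lists come from lines 30, 31 and 32 and the excluded lists from lines 34 and 37, so culture and cell line cannot be told apart in the contrast that defines the regions. A decreased domain is, by the name of its list, a stretch with less H2A.X than a control. A state column in the same lists reads as enrichment of a sample for every domain, so the direction rests on the names of the lists alone. The lists carry no read counts, so sequencing depth is unknown, and whether samples come from separate cultures is not stated.

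The lists differed in width, which limits what each could add to the rule. On these 16 chromosomes XS lines 30, 31 and 32 covered 37.9%, 73.5% and 32.2% of the span. The excluded lists covered between 34.6% (2i/LIF line 34) and 47.4% (line 34 after the move to serum), and 2i/LIF line 35 covered 78.5%. The excluded lists were not 4 unrelated views of the genome: both lists after the move had a Jaccard index (shared length over the length in either) of 0.813 with each other. Among the XS lists the index was 0.477 (lines 30 and 31), 0.443 (lines 30 and 32) and 0.429 (lines 31 and 32). Between an XS and an excluded list it ran from 0.171 (XS line 32, line 34 after the move) to 0.485 (XS line 31, 2i/LIF line 37). By this index the list of 2i/LIF line 35 was nearest to that of XS line 31 (0.759). Its index with the other 2i/LIF lists was 0.421 (line 34) and 0.569 (line 37). The index is bounded by list width. The lists of 2i/LIF lines 34 and 37 covered 34.6% and 46.4% of the span, against 78.5% for line 35. These values therefore do not show likeness apart from width.

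The XS-shared regions were broad. Their median length was 131 kb, with quartiles at 58.5 and 311 kb, and they ran from a single bin of 1.3 kb to 1.98 Mb. Only 28 were shorter than 10 kb, and these held 0.0805% of the length. The 30 regions of at least 1 Mb held 41.6 Mb, or 22.0% of the length, and 112 regions together made up 50% of it.

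**Figure D1:**
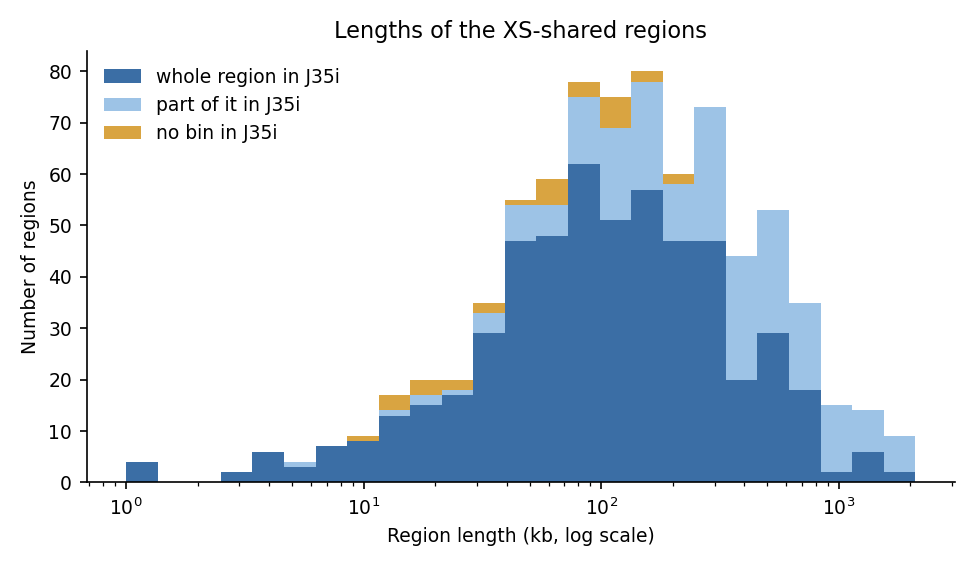
Number of XS-shared regions by length (kb, log scale), coloured by how much of the region the 2i/LIF list of line 35 (J35i) covers. Most regions lie between 10 kb and 1 Mb; 540 are wholly in that list, 204 in part and 30 not at all.

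Bins shared by the XS lists fell into nearly equal portions at the extremes of coverage in the excluded lists. The 3 XS lists had 432 Mb in common, 21.4% of the span. Of this, 189 Mb (43.8%) was in none of the 4 excluded lists, compared with 37.9% of the whole span. A further 186 Mb (43.0%) was in all of them, compared with 27.7% of the whole span. Intermediate bins, in 1, 2 or 3 of the 4 lists, made up 13.2% of the shared length, compared with 34.5% of the whole span. Just outside the rule lay 26.2 Mb in the 3 XS lists and in 1 excluded list, of which 21.0 Mb was in the list of 2i/LIF line 37 alone and 0.0819 Mb in that of 2i/LIF line 34 alone. Also just outside lay 171 Mb in 2 XS lists and in no excluded list. Of these, 156 Mb was missing from XS line 30, 14.6 Mb from XS line 32 and 0.218 Mb from XS line 31. The extent of the set therefore rested on XS line 30: without that list in the rule there were 1525 regions over 345 Mb.

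**Figure D2:**
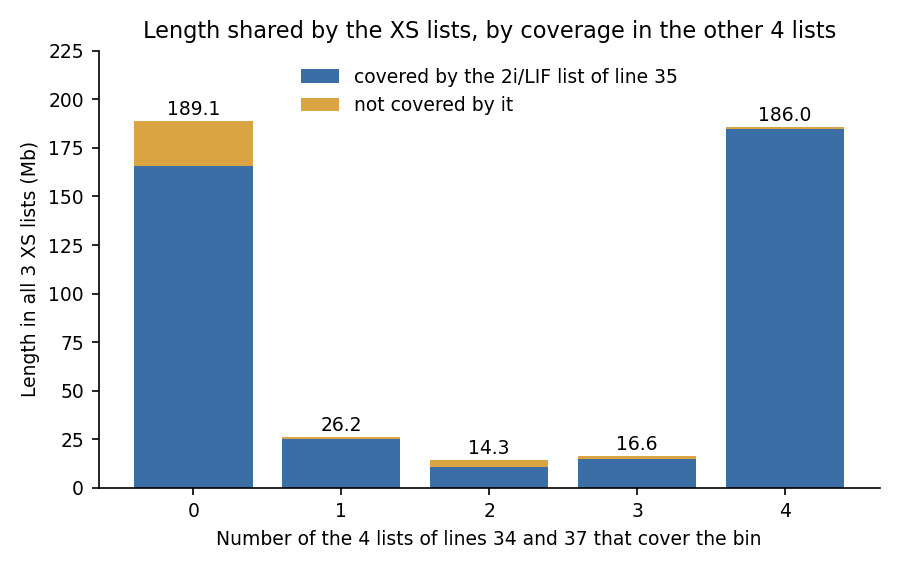
Length in all 3 XS lists (Mb) by how many of the 4 excluded lists (2i/LIF and 2i/LIF then Serum/LIF, lines 34 and 37) cover the bin, split by coverage in the 2i/LIF list of line 35. The bar at 0 is the set of XS-shared regions, 189 Mb, and the bar at 4 holds 186 Mb, while those between hold 14.3 to 26.2 Mb.

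In 2i/LIF, line 35 was decreased over most of the XS-shared regions, where lines 34 and 37 by the rule have no domain. Its list covered 166 of the 189 Mb, or 87.7%, and left 23.2 Mb uncovered. The same list covered 78.5% of all bins of the span and 67.4% of the bins that are in none of the 4 excluded lists. It covered 99.4% of the 186 Mb in all 7 lists. In bins of the 3 XS lists and 1, 2 or 3 excluded lists it covered 95.9%, 74.96% and 89.6%, so its coverage did not follow the number of excluded lists. Coverage of the XS-shared regions by line 35 was thus higher than that of the span and 20.3 percentage points above that of bins free of the excluded lists. These are values of 1 list, with no replicate to give their spread.

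Among bins in none of the 4 excluded lists, coverage by line 35 rose with the number of XS lists. It was 28.7% where no XS list had a domain, 78.6% with 1, 84.0% with 2 and 87.7% with all 3. The larger part of this range went with XS line 31, the widest XS list. Bins of XS line 31 alone (175 Mb) were covered over 79.3% by line 35, those of XS line 30 alone (0.839 Mb) over 39.1% and those of XS line 32 alone (3.85 Mb) over 57.6%. Bins of XS lines 31 and 32 without line 30 reached 84.6%, which is 3.10 percentage points below the XS-shared regions.

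**Figure D3:**
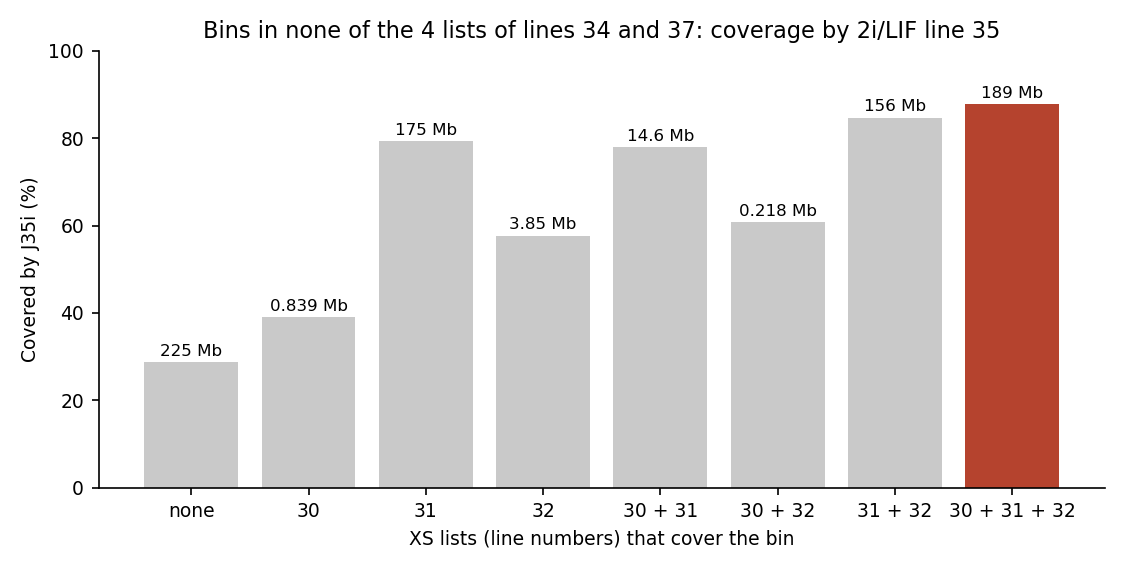
Share of bins covered by the 2i/LIF list of line 35 (%), for bins in none of the 4 excluded lists, by which XS lists cover them (line numbers); the total length of each class stands above its bar. The red bar, at 87.7%, is the set of XS-shared regions, and classes with XS line 31 lie between 77.9% and 87.7%, those without it between 28.7% and 60.7%.

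Region by region, the list of line 35 covered 540 of the 774 wholly, 204 in part and 30 not at all. The wholly covered regions had a median length of 103 kb and the uncovered ones of 60.5 kb. Partly covered regions were longer, with a median of 312 kb, and the median share in the list of line 35 was 75.05%. Shares of length hardly varied with size: line 35 covered 90.4% of the length in regions under 50 kb and 87.8% in the 100 regions of at least 500 kb. The uncovered 23.2 Mb lay in 265 stretches with a median of 68.9 kb. Of these, 188 reached an edge of their region, and the longest was 480 kb on chromosome 5 (78773501 to 79253200, mm9).

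The Serum/LIF S lists hardly met the XS-shared regions. The S list of line 35 covered none of their bins, against 0.0427% of the span. The S list of line 37 covered 31 bins, 0.0213% of the region length against 0.384% of the span. All 31 bins were in 1 region, on chromosome 3 from 25416301 to 25456600 (40.3 kb), named after its values were seen, which that list covered wholly and the 2i/LIF list of line 35 over 29.0%. Both S lists are narrow (0.863 and 7.76 Mb here), so they could meet only a small part of any set. In bins of all 7 lists the S lists of lines 35 and 37 covered 0% and 0.00629%. Their low coverage was thus not particular to the XS-shared regions.

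The edges of the regions were set mostly by where an XS domain ended. Of 1548 edges, 1242 (80.2%) were places where at least 1 XS list stopped while no excluded list began, and 306 (19.8%) were places where an excluded list began while all XS lists went on. XS line 30 alone set 762 edges and XS line 32 alone 433, but XS line 31 alone only 8. On the other side, 2i/LIF line 37 alone set 183 edges and 2i/LIF line 34 alone 3. At least 1 side of 273 regions (35.3%) abutted a domain of an excluded list. A further 416 regions had at least 100 kb free of every excluded list on both sides, and the median distance to the nearest such domain was 125 kb.

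The excluded lists stayed sparse beyond the edges. At 104 kb outside, 2i/LIF line 34 covered 1.16% of edges and line 37 15.1%, and after the move line 34 covered 6.01% and line 37 7.75%. At 499 kb these values were 4.78%, 19.97%, 13.4% and 14.2%, all under the shares of the span that the same lists cover. At that distance XS line 31 still covered 92.8% and XS line 32 65.4%, well above their 73.5% and 32.2% of the span. XS line 30 covered 43.5%, nearer to its 37.9%. The rule used all 7 of these lists, and 31.7% of the bins at 499 kb lay in another XS-shared region. The differences from the shares of the span therefore follow in part from the choice of the regions. The list of 2i/LIF line 35 changed little across the edge. It covered 87.8% of edges at 13 kb inside, 84.5% at the first bin outside and 83.3% at 104 kb outside. Regions that filled a whole stretch free of the excluded lists, with a domain of such a list on both sides, numbered 33 of 774. Only 384 of the 2144 unbroken stretches free of all 4 lists held a region, and 1 stretch held 13 regions. Stretches with a region had a median length of 759 kb compared with 98.8 kb for the others. A long stretch has more bins in which a region can lie, and the rule used these lists. XS-shared regions took up 46.0% of those 384 stretches.

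**Figure D4:**
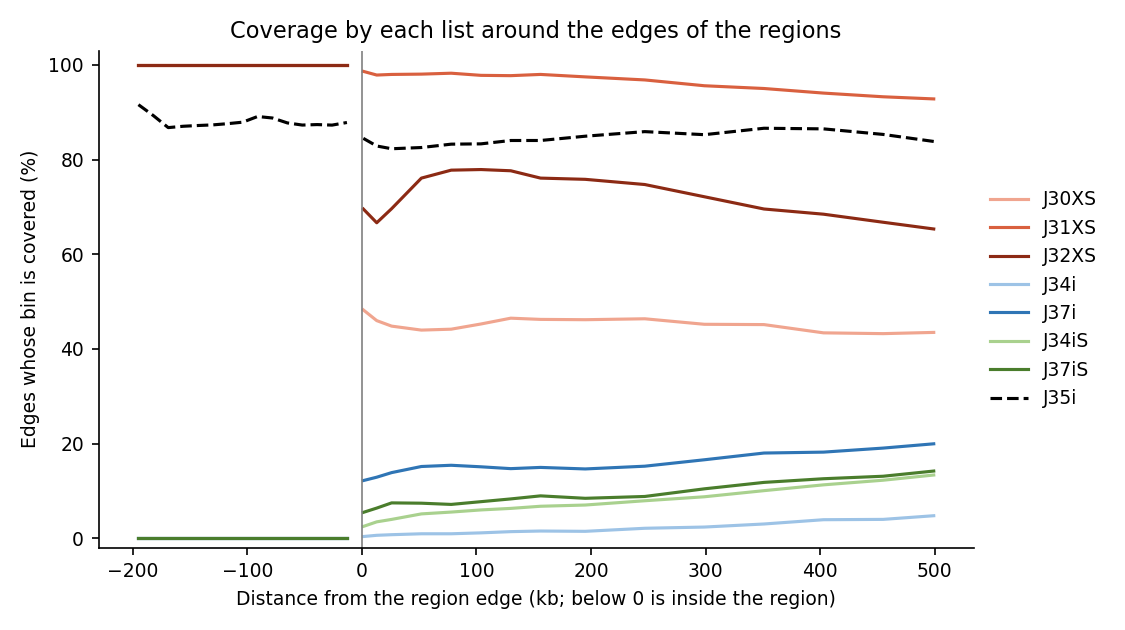
Share of the 1548 region edges whose bin is covered (%) by each wide list against the distance from the edge (kb, below 0 inside the region, where only regions at least 2 times as long as the distance are counted). Inside, the XS lists are at 100% and the excluded lists at 0% by the rule. Outside, XS line 31 stays at 92.8% or above and the excluded lists at 19.97% or below. The dashed line of 2i/LIF line 35 runs between 82.3% and 91.6% throughout. Bins outside an edge can lie in another XS-shared region, as 31.7% did at 499 kb.

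The share of a chromosome in XS-shared regions varied from 1.51% to 18.2%. It was largest on chromosome 16, with 18.2% (55 regions, 17.3 Mb), followed by chromosome 14 with 15.3% (54 regions, 18.5 Mb) and chromosome 3 with 13.9% (81 regions, 21.7 Mb). The smallest shares were on chromosome 9 with 1.51% (15 regions, 1.83 Mb), chromosome 11 with 3.19% (21 regions, 3.79 Mb) and chromosome 19 with 3.42% (15 regions, 1.99 Mb). Chromosome 11 is known as one of the most gene-dense chromosomes of the mouse. The length common to the 3 XS lists ran from 15.9% (chromosome 9) to 27.1% (chromosome 5) of a chromosome. It was 25.3% on chromosome 16, 22.5% on chromosome 14 and 18.8% on chromosome 3. On chromosomes 11 and 19 it was 21.4% and 17.7%. Its part in the range of the XS-shared regions was not tested. Of that shared length, 73.9% on chromosome 3, 71.8% on chromosome 16 and 68.1% on chromosome 14 was free of the excluded lists. On chromosome 9 it was 9.50%, on chromosome 11 14.9% and on chromosome 19 19.3%. Of all bins, 52.5%, 44.5% and 41.3% were free of the excluded lists on chromosomes 3, 16 and 14. On chromosomes 9, 11 and 19 these shares were 26.3%, 22.2% and 25.3%. Over the 16 chromosomes the share in XS-shared regions and the share free of the excluded lists had a Spearman coefficient of 0.83. The regions are part of those free bins, so no test is given.

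Bins of all 7 lists had a different distribution. They took up 15.2% of chromosome 11 but 2.53% of chromosome 3, 4.22% of chromosome 14 and 4.49% of chromosome 16. Over the 16 chromosomes the share in XS-shared regions and the share in all 7 lists had a Spearman coefficient of -0.59 and a Pearson coefficient of -0.61. The points share the same lists, and a bin cannot belong to both sets, so no test is given. The list of 2i/LIF line 35 covered 73.5% (chromosome 5) to 95.1% (chromosome 19) of the region length of a chromosome. It covered the regions more than the whole span on 15 of the 16 chromosomes. Chromosome 5 was the exception, with 73.5% of the regions and 73.9% of the span. On all 16 the value was above that for bins free of the excluded lists.

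**Figure D5:**
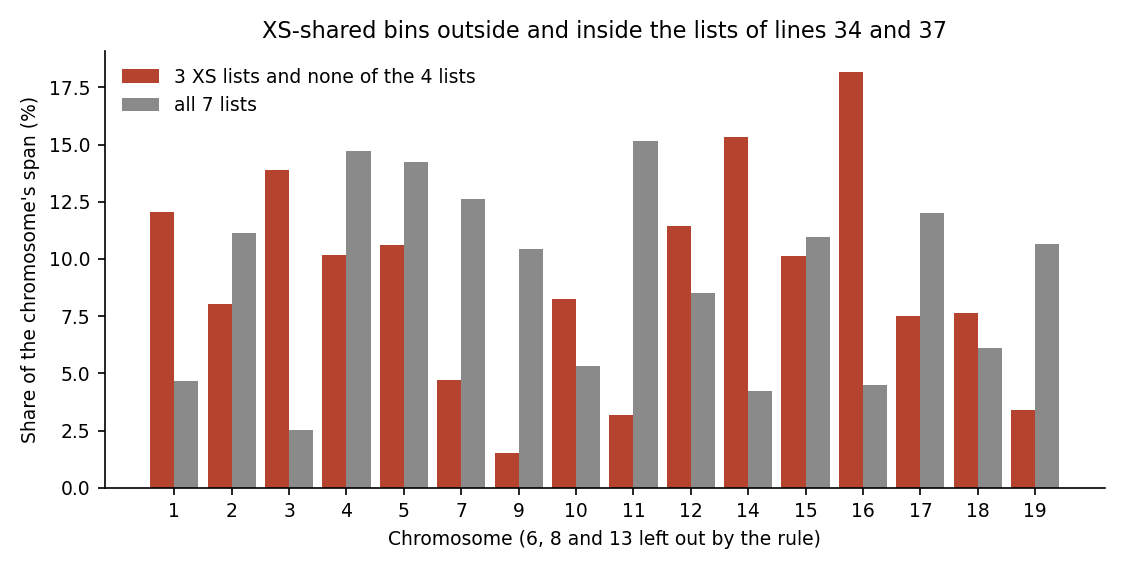
Share of each chromosome's span (%) in XS-shared regions (red, 3 XS lists and none of the 4 excluded lists) and in all 7 lists (grey). Chromosomes 16, 14 and 3 are highest in red, at 18.2%, 15.3% and 13.9%, and have 2.53% to 4.49% in grey, while chromosome 11 has 3.19% and 15.2%.

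Along the chromosomes the regions were sparser toward both ends than in the middle. Mouse autosomes have their centromere at the start of the sequence. In 5 equal parts of each span from the centromere, the regions took up 4.13%, 9.90%, 13.4%, 12.7% and 6.70%. The ends differed in the length common to the 3 XS lists, which was 9.53%, 18.1%, 21.5%, 25.3% and 32.5% of these parts. Bins of all 7 lists were densest in the distal part, with 4.33%, 5.86%, 5.45%, 8.57% and 21.8%. The list of 2i/LIF line 35 covered 89.1%, 87.3%, 83.6%, 90.5% and 90.5% of the region length in these parts.

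The regions lay in patches. Gaps between neighbours on a chromosome had a median of 193 kb, with 147 of 758 gaps at 50 kb or less and 200 of 1 Mb or more, up to 48.7 Mb. Of 2029 windows of 1 Mb, 526 (25.9%) held any of the regions, and 116 windows held 50% of their length. Bins of all 7 lists were found in 744 windows, and 36 windows held both. The sets need opposite coverage by the excluded lists, so their separation follows in part from the rule. In 164 windows at least 50% of the sequence was XS-shared region. By their choice these dense windows are free of the excluded lists over at least 50%. Those lists had a median coverage of 0% there. Their maximum was 6.89% in 2i/LIF line 34, 42.4% in 2i/LIF line 37, and 16.2% and 19.9% in lines 34 and 37 after the move. The list of 2i/LIF line 35 covered the dense windows over 34.2% to 100%, with a median of 92.1%. Among the 5 windows with the most region length all were filled wholly by regions, on chromosomes 1, 2 (at 2 places) and 14 (at 2 places). Line 35 covered 75.7% of the one on chromosome 1 (from 150000501), 100% and 94.8% of those on chromosome 2 (from 46003101 and from 99004101), and 95.8% and 66.0% of those on chromosome 14 (from 82517501 and from 108517501).

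Joining regions separated by at most 50 kb gave 627 groups, of which 499 were single regions holding 59.9% of the length, and no group had more than 4 members. Of the 5 groups with the most region length, the first was on chromosome 1 from 148493801 to 151551400 (mm9), with 3 regions that filled 98.5% of 3.06 Mb and that line 35 covered over 77.6%. Next came groups on chromosome 4 from 36285601 to 38517700 (2.19 Mb of region, 99.8% in line 35) and on chromosome 14 from 81911701 to 84094400 (2.16 Mb, 98.1%). The remaining 2 of these 5 were on chromosome 12 from 94330601 to 96556200 (4 regions, 2.14 Mb, 96.4%) and on chromosome 3 from 149386901 to 151312200 (1.91 Mb, 97.1%).

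The 10 longest regions held 17.0 of the 189 Mb and lay on chromosomes 1, 2, 4, 14 and 16. The longest was on chromosome 14 from 81911701 to 83895500 (1.98 Mb, mm9), of which line 35 covered 97.9% in 2i/LIF. It lay in a domain of 2.09 Mb in XS line 30, 6.56 Mb in XS line 31 and 3.02 Mb in XS line 32. In the 500 kb on both sides of it, 2i/LIF line 37 had 22.1% covered and the other 3 excluded lists nothing, and the 2i/LIF list of line 35 covered those flanks wholly. Chromosome 14 held 2 more of the 10, from 96276701 to 97887400 (1.61 Mb, 100% in line 35) and from 108431701 to 110086600 (1.65 Mb, 72.6%). The latter was bounded on both sides by an excluded list, 2i/LIF line 37, which covered 24.7% of its flanks, while the XS lists went on through both flanks.

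Chromosome 4 held 3 of the 10 longest regions, from 66591201 to 68478800 (1.89 Mb, 75.5% in line 35), from 91395201 to 93041000 (1.65 Mb, 86.6%) and from 36285601 to 37892400 (1.61 Mb, 100%). In the flanks of the first, 2i/LIF line 34 had 0% covered, 2i/LIF line 37 36.98%, and lines 34 and 37 after the move 21.1% and 19.8%. No excluded list came within 500 kb of the last. Chromosome 16 held 2, from 79319501 to 81159000 (1.84 Mb, 73.0%) and from 68636101 to 70151900 (1.52 Mb, 87.7%), both inside the same unbroken stretch of 19.5 Mb in XS line 31. The first of these also had no excluded list within 500 kb. The remaining regions were on chromosome 2 from 98624501 to 100291100 (1.67 Mb, 96.9%) and on chromosome 1 from 149949801 to 151551400 (1.60 Mb, 81.7%). Every one of the 10 was covered over at least 72.6% by the 2i/LIF list of line 35, which covered 78.5% of the span. Below that share lay the region of 1.89 Mb on chromosome 4 (75.5%), that of 1.84 Mb on chromosome 16 (73.0%) and that of 1.65 Mb on chromosome 14 (72.6%).

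Regions that line 35 also lacked in 2i/LIF were short, 30 in number and 2.25 Mb in all. The longest of them measured 229 kb and spanned 69005301 to 69234100 of chromosome 7 (mm9). Chromosome 5 held the second and the third in length, 202 kb at 85607601 to 85809100 and 166 kb at 69498001 to 69664400. One of 137 kb on chromosome 4 (38602201 to 38738700) and one of 131 kb on chromosome 3 (78093601 to 78224900) came next. Line 35 nevertheless covered 37.9%, 56.5%, 83.5%, 73.3% and 64.3% of the 500 kb flanks of these 5, in that order. No excluded list had a domain within 500 kb of those on chromosomes 7 and 4 and of the longer one on chromosome 5.

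The domains that carried the regions were among the longer ones of their lists. In XS line 30, 554 of 2177 domains overlapped a region, with a median length of 278 kb against 190 kb for the rest. The values were 234 of 1849 domains with 2361 kb against 326 kb in XS line 31, and 559 of 3855 domains with 343 kb against 68.9 kb in XS line 32. A long domain has more bins to meet any set, and these lengths are from the lists that the rule used. The score the authors gave each domain, taken per bin, had a median of 0.626 in XS line 30 domains with a region and 0.716 in those without. In XS line 31 it was 0.656 and 0.636, and in XS line 32 0.784 and 0.793. The XS-shared regions made up 24.7%, 12.7% and 29.1% of the length of the lists of XS lines 30, 31 and 32.

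The opposite set, bins in all 4 excluded lists and in no XS list, was smaller. It had 828 stretches over 38.9 Mb, 1.92% of the span, with a median of 33.8 kb and none longer than 0.242 Mb. The list of 2i/LIF line 35 covered 94.8% of it, so line 35 was decreased over most of both sets, as over 78.5% of the span. Bins in all 4 excluded lists and in 1, 2 or 3 XS lists were covered over 98.0%, 98.8% and 99.4%.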

How the data were processed

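The submitters' processing notes name Bowtie2, version 2.0.6, and the build mm9. How domains were called, and against which control, is not given in the sources used here. The authors deposited 1 list for each of these 10 samples, with a score of undefined scale per domain that served to rank domains within a list and as a median per bin; a second, signed score was not used. All domain ends were multiples of 1300 bp. Lists were turned into covered and uncovered bins between the first and last bin any list covers on each of 16 autosomes, and the rule was applied to them. Coordinates are 1-based. The region-finding code was tested on simulated lists. The members and the regions named (longest, longest without line 35, densest groups and windows; chromosomes at either extreme) were chosen with earlier results of these data known. Genes and sequences were not assigned, because the tables at hand are of GRCm38.p6, not mm9. Grouping followed the labelled culture and, for Serum/LIF, the S or XS of the titles, whose meaning is not given. No test was made. Alternatives were domain length, score, joining of domains or regions, each list left out, the 3 chromosomes included, a minimum of 5 bins, a margin of 10 kb and the overlap needed. Analyses used Python 3.11.15, numpy 2.4.6, pandas 2.3.3, scipy 1.17.1 and matplotlib 3.10.9.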

Additional observations from a re-analysis of the deposited data

How the results depend on the processing

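The number of regions fell from 774 to 436 with only the higher-scoring 50% of each list, and line 35 then covered 80.0% of their length. The length of the set changed less, from 189 to 177 Mb. In this setting the excluded lists and the list of line 35 are reduced as well, so bins can also join the set. Leaving out each list of the rule in turn gave 736 to 1525 regions over 189 to 345 Mb, of which line 35 covered 86.3% to 88.9%. The upper values of number and length, and the lowest coverage, were without XS line 30. Coverage by line 35 was 87.2% with chromosomes 6, 8 and 13 included. With each region or each chromosome weighted equally, settings chosen after seeing the data, it was 88.0% and 88.3%. A minimum domain length, joining of domains or regions, a minimum of 5 bins and a margin of 10 kb to the excluded lists each left the number between 746 and 776. At least 1 bin of 744 regions was in the list of line 35, at least 50% of 701 and the whole of 540. No paired analysis was possible because no result comes from a test. Depth is unknown for every list, and its part in which bins lack a domain was not tested.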

Other observations

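On the 3 chromosomes that the rule leaves out, the same bin conditions gave different amounts. Chromosome 6 had 16.7 Mb in the 3 XS lists and none of the 4 excluded lists, 11.4% of its span, and 2i/LIF line 35 covered 85.2% of it. Chromosome 8 had 6.37 Mb, 4.96% of its span, covered over 75.6% by line 35. Lines 34 and 37 after the move cover only 4.37% and 0.0355% of chromosome 6 and 1.16% and 0.280% of chromosome 8, so there the condition on the excluded lists rests almost entirely on the 2i/LIF lists. Chromosome 13 had no such bin, because XS line 32 covers 0.0821% of it and the 3 XS lists have only 0.0364 Mb in common.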
